A study of Homo sapiens with 24 samples.

Results

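Box C/D small nucleolar RNAs (snoRNAs) were examined in a table of Ago2 CLIP peaks from 293S cells with and without sodium arsenite. The members were all peaks whose annotated gene name begins with SNORD followed by a digit: 66 peaks in 58 genes, of 24041 peaks in 6088 genes in all. All 66 peaks were annotated to exons of noncoding RNAs, and all 58 genes were found among the snoRNA genes of RefSeq, 55 by transcript accession and 3 by symbol. The snoRNA then called SNORD85 is named SNORD103C there.

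293S is a line derived from human embryonic kidney cells. The untreated cells and the cells given 1 mM arsenite for 30 min were each sampled as 4 biological replicates, and each sample went through Ago2 CLIP and RNA-seq, so that treated and untreated libraries and both assays are paired by replicate. Ago2 is the Argonaute protein that carries miRNAs, and CLIP recovers the RNA that ultraviolet light crosslinks to it. A further band excised during the CLIP procedure, named LO in the labels, served to measure the miRNAs bound to Ago2, also in 4 replicates per treatment, which makes 24 libraries in 6 groups. All groups came from 1 cell line. The table gives 1 log average and 1 log ratio (arsenite over untreated) of normalized signal per peak, as the authors computed them, and none per replicate. Neither the log base nor the normalizer is stated, so no fold, standard deviation or replicate test can be given, and every comparison below describes this table. Where RNA amounts differ between treatments, a difference in binding and a difference in the amount of RNA cannot be told apart, because RNA-seq values were not analysed here.

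Box C/D snoRNAs are short nucleolar RNAs that sit in a particle with the methyltransferase fibrillarin, NOP56, NOP58 and SNU13. Most of them pair with ribosomal RNA or with the U6 small nuclear RNA and direct methylation of the ribose at the paired position, while a few help to cut the ribosomal RNA precursor. In human cells most are released from introns of other genes, many of which encode ribosomal proteins or serve mainly as snoRNA hosts. Some snoRNAs are also cut into short fragments that can be loaded onto Argonaute proteins.

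Matches to miRNA seeds were scarce in these peaks, and the miRNAs in question are shown first because a seed match is the usual reading of an Ago2 peak. The authors listed, for every peak, matches to the 7-nucleotide seeds of 50 miRNA families. At the peak with the highest log average, 7 of 58 box C/D genes had a match, where 44.5% of all genes did. The share was also low in other noncoding classes, with 5 of 31 box H/ACA snoRNA genes and 24.3% of the other genes in noncoding exons. It was 53.4% for genes whose strongest peak lay in a 3'UTR. Counting every peak, 9 of 66 (13.6%) matched, beside 31.5% of all peaks and 21.5% of peaks in noncoding exons. The matches came from 8 families. For each, the most abundant member on Ago2 is given as its mature sequence from RefSeq (GRCh38.p14), with the seed, bases 2 to 8 from the 5' end, in capitals. In all 8 families the members found in RefSeq share these bases.
miR-27a-3p: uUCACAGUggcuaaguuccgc
miR-222-3p: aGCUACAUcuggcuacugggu
miR-92a-3p: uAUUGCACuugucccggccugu
miR-181a-5p: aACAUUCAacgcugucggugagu
miR-338-3p: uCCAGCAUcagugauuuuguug
miR-29b-3p: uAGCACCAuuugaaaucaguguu
miR-18a-3p: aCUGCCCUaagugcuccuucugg
miR-33a-5p: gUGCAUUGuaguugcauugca

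The miR-27 seed, the first of these, was listed for SNORD17 and SNORD36B, and the miR-181 seed for SNORD94 and SNORD97. SNORD97 also carried the miR-338-3p seed. SNORD17 had a miR-222-3p match at its other peak, SNORD63 a miR-92a-3p match, SNORD15B a miR-29 match at its 3' peak, SNORD90 a miR-18a-3p match and SNORD46 a miR-33 match. At their strongest peaks, matched or not, the log ratios of these 8 genes ran from 0.81 to 3.32, within the range of the class. SNORD36B had 3.32 at a log average of -2.66, and SNORD97 had 3.21 at -7.56. SNORD90 had 2.81 at -4.62 and SNORD94 2.47 at -4.53. SNORD46 had 2.37 at -0.22 and SNORD15B 2.36 at -5.09, at their strongest peaks. That peak of SNORD15B has no match, and its matched 3' peak had 3.95 at -5.21. Low in this set were SNORD63 with 0.86 at -1.70 and SNORD17 with 0.81 at -4.40. By their strongest peaks, the 8 genes with a match at any peak had a median of 2.42, and the 50 genes with none also had 2.42. The log ratios of matched and unmatched snoRNAs overlapped.

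The miRNAs of these families were present on Ago2 in very different amounts. The miR-27 family made up 4.77% of the summed means of the 1000 mature miRNA entries, the family of miR-222-3p 2.51%, that of miR-92a-3p 2.36%, miR-181 1.07%, miR-338-3p 0.595%, miR-29 0.148%, miR-18a-3p 0.126% and miR-33 0.0892%. In the authors' deposited table miR-27a-3p had a mean of 769534 untreated and 733999 with arsenite, a log2 fold change of -0.07. miR-18a-3p had a log2 fold change of -0.57 and an unadjusted p of 0.0113 in the authors' deposited table, with an adjusted p of 1 by DESeq. All 1000 mature entries, these 8 miRNAs among them, had an adjusted p of 1 in the authors' deposited table.

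Nearly all box C/D snoRNAs had more normalized Ago2 signal in arsenite-treated cells. With the peak of the highest log average standing for each gene, 57 of 58 log ratios lay above 0, where 79.9% of all genes did, and 1 lay below 0, where 20.1% did. The median was 2.42, with quartiles of 1.86 and 2.99, and all genes had a median of 1.10. The zero point depends on how the authors scaled the values, so the centre of the table is the better reference: 52 of the 58 genes lay above the median of all genes. Log ratios above 1 were listed for 52 genes (53.1% of all genes), above 2 for 41 (22.1% of all genes) and above 3 for 14 (3.24% of all genes). A log ratio below -1 was listed for 1 (4.52% of all genes) and below -2 for 0 (0.624% of all genes). Of the 304 genes with the highest log ratios, the top 5%, 17 were box C/D snoRNAs, which make up 0.953% of the genes.

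**Figure D1:**
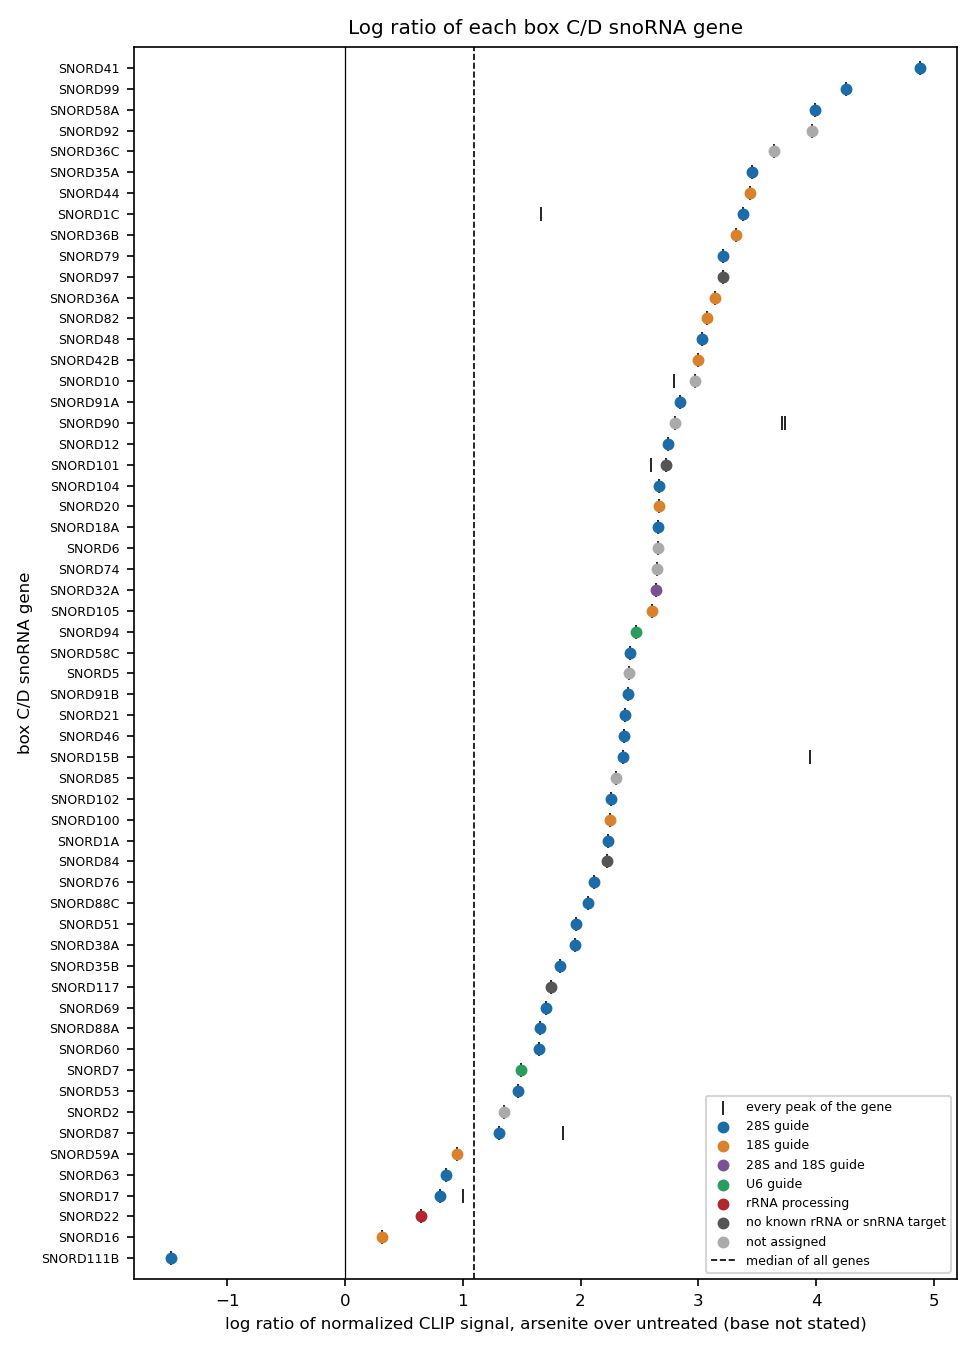
Log ratio (arsenite over untreated, base not stated; x axis) of each of the 58 box C/D snoRNA genes (y axis, sorted). Dots mark the peak with the highest log average, coloured by the RNA the snoRNA is known to act on, ticks mark every peak of the gene, and the dashed line is the median of all genes, 1.10; 52 dots lie to its right and only SNORD111B lies below 0.

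The highest value was that of SNORD41, which directs methylation of 28S ribosomal RNA and lies within the nuclear import gene TNPO2 (hg19, chromosome 19, 12817284 to 12817305). Its log ratio of 4.88 ranked 2 among all 6088 genes, on a peak of 22 nucleotides with a log average of -7.25. SNORD99, a 28S guide hosted by the noncoding RNA SNHG12 (chromosome 1, 28905299 to 28905332), followed with 4.26 at rank 8. SNORD58A, a 28S guide in the ribosomal protein gene RPL17, had 3.99 at rank 11, and SNORD92, in the ribosome biogenesis gene WDR43, had 3.97 at rank 14. Next came SNORD36C with 3.64, SNORD35A with 3.46, SNORD44 with 3.44 and SNORD1C with 3.38. These 8 genes lie in 8 different hosts. Among them only the peak of SNORD35A, with -0.24, and that of SNORD44, with -1.59, were among the stronger ones by log average. The other 6 log averages lay below the median of all genes, -4.38. Besides that of SNORD41, they were -4.98 for SNORD58A, -5.07 for SNORD36C, -7.07 for SNORD92, -7.18 for SNORD99 and -8.15 for SNORD1C.

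At the other end, SNORD111B stood alone. This relative of the 28S guide SNORD111 lies in SF3B3, a gene for a splicing factor subunit, and its single peak (chromosome 16, 70563416 to 70563484) had a log ratio of -1.47 at a log average of -3.77. It ranked 5987 of 6088. The next 5 were SNORD16, an 18S guide in RPL4, with 0.31 (chromosome 15, 66795157 to 66795238), SNORD22 with 0.65, SNORD17 with 0.81, SNORD63 with 0.86 and SNORD59A with 0.95. All 5 lay below the median of all genes but above 0. Their log averages were -3.30 for SNORD16, -7.38 for SNORD22, -4.40 for SNORD17, -1.70 for SNORD63 and -7.04 for SNORD59A. SNORD87 was the lowest of the rest, with a log ratio of 1.31 at a log average of -8.93, and SNORD2 followed with 1.35 at -2.15.

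By the RNA they act on, the classes overlapped broadly. Classes were assigned from textbook knowledge, and 9 genes were left without a class, which does not mean that they have no known target. The 31 guides of 28S ribosomal RNA had a median of 2.36, from -1.47 (SNORD111B) to 4.88 (SNORD41), and 30 lay above 0. The 10 guides of 18S ribosomal RNA had a median of 2.83, from 0.31 (SNORD16) to 3.44 (SNORD44), and all 10 lay above 0. SNORD32A, which guides both, had 2.64. Those assigned as guides of U6 methylation had 2.47 (SNORD94) and 1.50 (SNORD7). The 4 snoRNAs with no known target on ribosomal or spliceosomal RNA, SNORD97, SNORD101, SNORD84 and SNORD117, ran from 1.75 to 3.21 with a median of 2.48. SNORD22, also called U22, takes part in cutting the precursor of 18S RNA and was the only processing snoRNA listed, with 0.65. No gene of the U3, U8, U13 or U14 snoRNAs, and none of the imprinted clusters from SNORD107 to SNORD109 and from SNORD112 to SNORD116, was among the rows used here. The 9 genes without a class had a median of 2.66, from 1.35 to 3.97.

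Host genes, as assigned from textbook knowledge, gave another way to group the members. The 21 snoRNAs in introns of ribosomal protein or translation factor genes had a median of 2.64, and 17 of them exceeded 2. The 10 in noncoding hosts had a median of 2.70, with 8 above 2, and the 18 in other coding hosts a median of 2.15, with 10 above 2. The 9 whose host was not on the list had a median of 2.40. These ranges overlap: the lowest member was 0.31, 0.65, -1.47 and 1.50 and the highest 3.99, 4.26, 3.97 and 4.88 in the order given. Of the 9 not on the list, RefSeq places SNORD104, SNORD60 and SNORD7 in SNHG25, SNHG19 and SNHG30, and SNORD51 in EEF1B2. Hosts counted as coding include C6orf48 and C19orf48, which RefSeq names SNHG32 and C19orf48P. The medians therefore describe the assigned list and not a full sorting of hosts.

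snoRNAs of the same host often had similar values, though not always. GAS5, a noncoding RNA that carries many snoRNAs, had 4 members listed, SNORD44 with 3.44, SNORD79 with 3.21, SNORD74 with 2.65 and SNORD76 with 2.11. In RPL7A, SNORD36C had 3.64, SNORD36B 3.32 and SNORD36A 3.14, a spread of 0.50. TAF1D, a subunit of the polymerase I factor SL1, hosts SNORD6 with 2.66 and SNORD5 with 2.42. Nucleolin (NCL) hosts SNORD82 with 3.07 and SNORD20 with 2.67. In contrast, RPL4 hosts SNORD18A with 2.66 and SNORD16 with 0.31, and WDR43 hosts SNORD92 with 3.97 and SNORD53 with 1.47. Of the 14 hosts with more than 1 member, RPL4 and WDR43 had the widest spreads, 2.35 and 2.50. RPL17 came next with 1.57, between SNORD58A and SNORD58C.

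Most host transcripts had lower values than their snoRNAs. A host with peaks of its own was found for 46 snoRNAs, in 32 hosts, and 38 of the 46 snoRNAs had a higher log ratio than the strongest peak of their host. The median difference was 1.17, and it was 1.27 against the median over the host's peaks, where 38 were higher too, though not the same 38: SNORD2 and SNORD38A lay below that median while SNORD21 and SNORD87 lay above it. The hosts had a median of 1.15, close to the 1.10 of all genes, with 27 of 32 above 0 and 5 above 2. Counted per host, the median of the snoRNAs lay above the strongest peak of the host in 24 of 32. GAS5 itself had 0.07 at its strongest peak and TNPO2 0.61, while SNORD41 in the latter had 4.88. EIF4A1, a translation initiation helicase, had 0.15 and its SNORD10 had 2.97. C6orf48, a small host gene, had 0.15 and its SNORD48 had 3.03. Ribosome biogenesis gene TSR1 had 0.03, against 2.85 for SNORD91A and 2.40 for SNORD91B. ATP5B, a subunit of ATP synthase, had -0.62 and its SNORD59A, low for the class, had 0.95.

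The 8 exceptions lay in 8 hosts, and 7 of them are described. SNORD111B differed from SF3B3 by -1.80 and SNORD58C from RPL17 by -0.99. RPL17 had 3.41, from 1 peak, the highest value among the hosts. SNORD22 and SNORD63 differed by -0.56 and -0.55 from SNHG1 and HSPA9, a mitochondrial chaperone gene. SNORD17 differed by -0.28 from SNX5 and SNORD21 by -0.16 from RPL5. SNORD87 differed from SNHG6 by -0.01. Across the 46 pairs Spearman's rho between snoRNA and host was 0.18, a description over pairs that share hosts and libraries. No overlap on the same strand was found between a box C/D peak and a peak annotated to another gene.

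**Figure D2:**
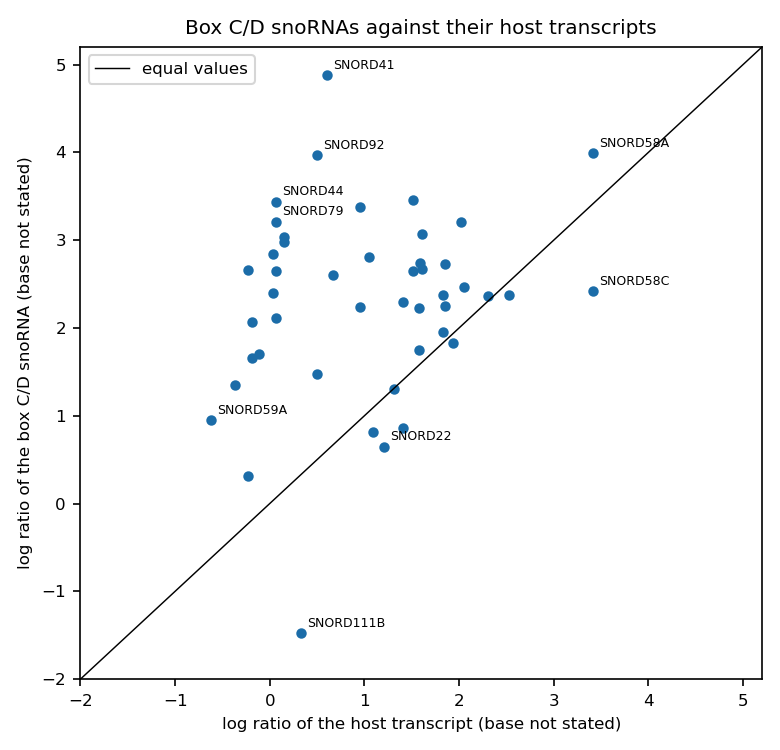
Log ratio of each of 46 box C/D snoRNAs (y axis) against that of the strongest peak of its host transcript (x axis), both arsenite over untreated with an unstated base; the line marks equal values. Of the points, 38 lie above the line, and SNORD111B, SNORD58C and SNORD22 are among the 8 below it.

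Copies of a snoRNA family can share reads, and the way multiply mapping reads were counted is not given in the sources used here, so values of single copies are uncertain. In 6 families more than 1 copy was listed. SNORD35A had 3.46 and SNORD35B 1.83, and SNORD1C had 3.38 and SNORD1A 2.24. SNORD91A and SNORD91B had 2.85 and 2.40, and SNORD88C and SNORD88A had 2.07 and 1.66. The copies of SNORD36 are given above with RPL7A and those of SNORD58 with RPL17. All copies had log ratios of at least 1.66.

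In 7 genes more than 1 peak was listed, and the peaks of each were ordered from 5' to 3'. The ends of the snoRNAs were not located, so 5' peak and 3' peak name only this order. In 6 of the 7, SNORD101 included, the most 3' peak had a higher log ratio than the most 5' peak. The same share over all genes with several peaks was not computed, so 6 of 7 cannot be called unusual. SNORD15B had 2.36 at its 5' peak and 3.95 at its 3' peak, at log averages of -5.09 and -5.21, and these peaks do not overlap. SNORD1C had 1.66 and 3.38 and SNORD87 had 1.31 and 1.85, both on weak peaks with log averages between -9.50 and -8.15. SNORD90, a snoRNA in RC3H2 with 3 peaks, had 2.81 at the 5' peak and 3.71 at the 3' peak, and the one between them had 3.74. In SNORD10 (2.79 and 2.97) the values were close. The peaks of SNORD101 (2.60 and 2.73) start at nearly the same position, the shorter almost wholly within the longer. Their order therefore means little. SNORD17, the exception, had 1.00 at the 5' peak and 0.81 at the 3' peak. Peaks overlapped each other in 5 of these 7 genes, so their values may share reads.

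The signal on box C/D snoRNAs ranged from the bottom of the table to near its top, the highest log average of all genes being 4.01. SNORD88C, a 28S guide in C19orf48, had a log average of 1.46, which ranked 6 of 6088 genes (chromosome 19, 51305591 to 51305674), with a log ratio of 2.07. SNORD46 followed with -0.22 (rank 60), SNORD35A with -0.24 (rank 63), SNORD88A with -0.47 (rank 91), SNORD20 with -0.55 (rank 105) and SNORD105 with -1.04 (rank 188). SNORD102 had -1.07, SNORD35B -1.12, SNORD100 -1.20 and SNORD18A -1.24. Log ratios of these 10 strongest members lay between 1.66 and 3.46. Those of SNORD105, SNORD46, SNORD102 and SNORD100 were 2.60, 2.37, 2.26 and 2.25, and the others are given with their hosts or families. At the bottom, SNORD32A had the lowest log average of all 6088 genes, -9.50, and SNORD87 had the next, -8.93. The median log average of the class was -4.24 beside -4.38 for all genes, and 11 of 58 were in the top 5%.

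High log ratios were found at every level of signal. When all genes were split into 4 equal bins by log average, the box C/D median was 2.38 in the lowest bin (15 snoRNAs), 2.61 in the second (14), 2.24 in the third (7) and 2.49 in the highest (22). All genes in these bins had medians of 1.14, 1.20, 1.11 and 0.90. Differences from all genes were 1.24, 1.41, 1.13 and 1.59. Over the 58 snoRNAs Spearman's rho between log average and log ratio was -0.10, and over all genes it was -0.07. Peaks of the class had a median length of 55.5 nucleotides, from 21 to 129, beside 50 for all peaks.

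**Figure D3:**
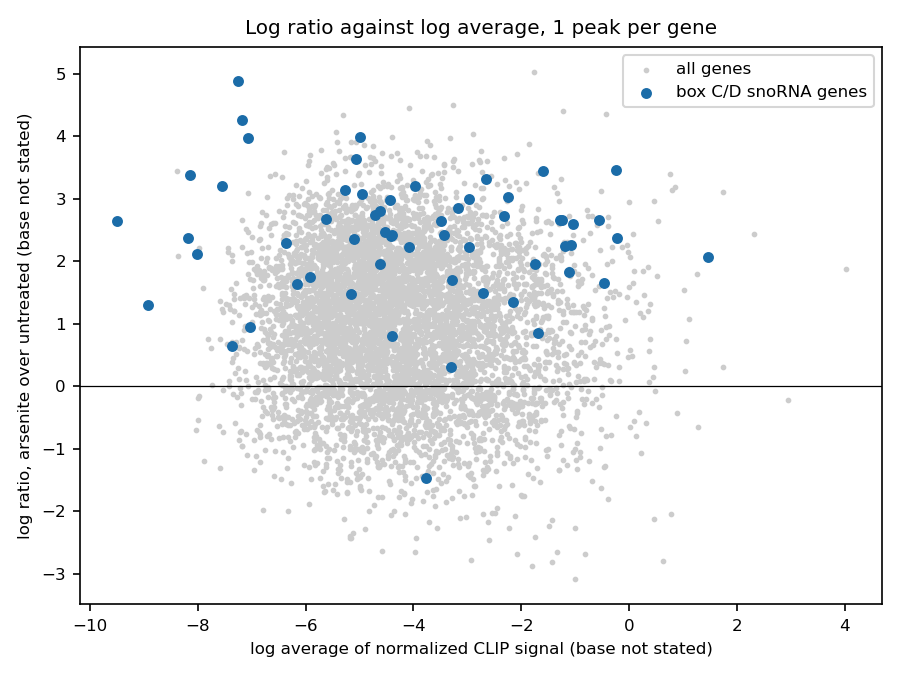
Log ratio (arsenite over untreated) against log average of normalized CLIP signal, both with an unstated base, for the strongest peak of each of 6088 genes; blue dots are the 58 box C/D snoRNAs. The snoRNAs span log averages from -9.50 to 1.46 and 52 of the 58 lie above the median log ratio of all genes, 1.10.

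Other classes of RNA were set beside the box C/D class, 1 peak per gene. Box H/ACA snoRNAs, which direct pseudouridylation, are the other main class of snoRNAs. All 31 SNORA genes lay above 0, with a median of 1.62 and a range of 0.31 to 3.44. The box C/D median was higher by 0.80, but the ranges overlap, and 41 of 58 box C/D genes exceeded 2 where 10 of 31 box H/ACA genes did. The 8 small Cajal body RNAs (SCARNA) had a median of 0.92, from -1.16 to 3.19. Among 206 other genes in noncoding exons the median was 0.06, and 106 of them lay above 0, so these other genes were centred near 0. Of the short nuclear RNAs on a check list, RNU11, RNU12, RNU4ATAC and RNU6ATAC of the minor spliceosome had 2.69, 2.87, 2.85 and 2.79. RPPH1, the RNA of ribonuclease P, had 2.58 and RMRP, that of the related enzyme MRP, had 1.37. The long nuclear RNAs MALAT1 and NEAT1 had -0.42 and -0.35. RN7SK, also on that list, had no row. None of these differences could be tested over samples.

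**Figure D4:**
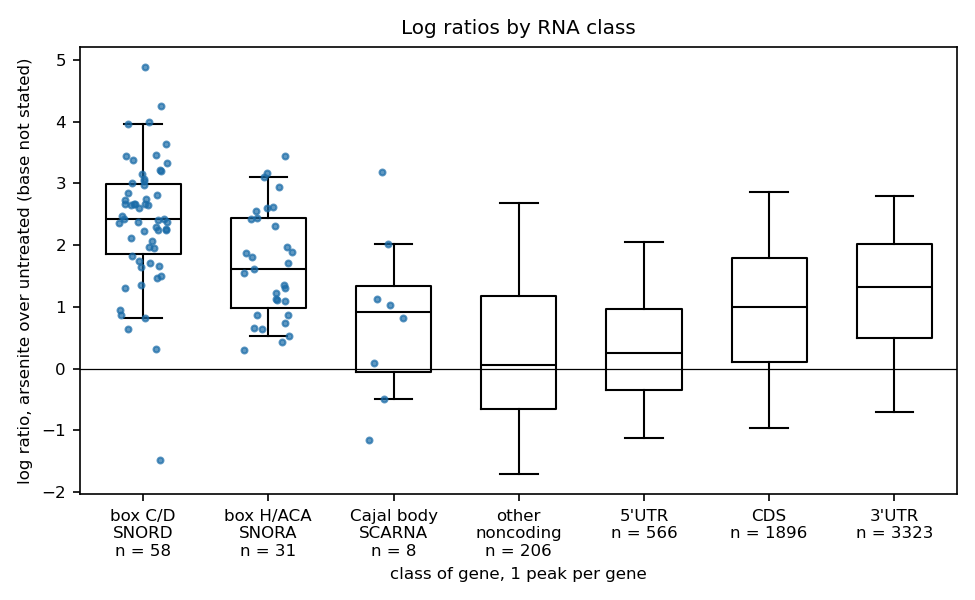
Log ratios (arsenite over untreated, base not stated; y axis), 1 peak per gene, by class of RNA (x axis). Boxes give the quartiles and the median, whiskers the 5% and 95% points, and dots single genes in classes of fewer than 100; the box C/D median, 2.42, lies above those of all the other classes shown, of which box H/ACA is nearest with 1.62.

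Transcripts of the proteins that build and process box C/D particles were checked as a list of 20, of which 9 had a peak. Their median was 1.09, close to that of all genes, with 7 of 9 above 0 and 4 above the median of all genes. FBL, the fibrillarin mRNA, had 1.12. NOP56, a core protein whose gene also hosts box C/D snoRNAs, had 1.43 at its strongest peak, which was annotated to a noncoding exon, and a median of 0.63 over its 17 peaks. ZNHIT6 and RPAP3, assembly factors, had 1.09 and 1.29, and PIH1D1, another, had 0.55. XRN2, the exonuclease that trims snoRNA ends, had 1.72, and DIS3, a catalytic subunit of the exosome, had -0.33. NOLC1, a nucleolar chaperone, had -0.04 and DDX21, a nucleolar helicase, had 0.63. Of 10 markers of other cell types only NEFL, a neuronal gene, was listed, with 2.43 at its strongest peak and 0.47 as the median of its 6 peaks.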

How the data were processed

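The CLIP peak and miRNA tables were used as deposited. Bowtie 0.12.8, TopHat, DESeq and the build hg19 appear in the submitters' processing notes without role or order. The peak caller, the normalizer and the treatment of multiply mapping reads are not stated. Log averages and log ratios of peaks are handled as deposited scores, since no log base is given. In the miRNA table the means are signal values that the authors averaged per treatment, per the file headers, and the ratio (fold), its log2 value and the p-values are the authors' deposited results from DESeq. The tables hold 0 columns of single samples, so depth is unknown and no replicate test was made. Medians and counts are given instead.

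Each gene was represented by its peak with the highest log average. Coordinates are those of the file on hg19, and whether they start at 0 or 1 is not known. Target classes and 49 hosts were assigned from textbook knowledge. All 49 hosts contain their snoRNA in RefSeq (GRCh38.p14, used for names and containment only), which also gave hosts for other members. RefSeq gives no strand there, but the peaks of the host lay on the strand of the snoRNA for 46 of 46 members. Log ratio and log average were given for the 10 members with the highest log average, the 8 highest and 8 lowest log ratios, those with a seed match or with 3 or more peaks, and U22. The comparison of 1 member with its host is not reported here. The members and lists were chosen with earlier results of these data known. Python 3.11.15 and pandas 2.3.3 were used. The calculation of the medians, not their precision, was checked on simulated independent values with a known shift. Alternatives varied the peak per gene, the filters on log average, length, overlap and seeds, the grouping by host or family, the background and the size called.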

Additional observations from a re-analysis of the deposited data

How the results depend on the processing

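Of 63 alternative values computed, 59 kept their direction and stayed close to the main value. For counts, close meant within 1.5 times. For medians it meant within the exact 95% binomial interval of that median, except that the class of 4 genes had its full range instead. Differences between medians were judged by the interval of the box C/D median alone. The box C/D median lay between 2.41 and 2.47 in all alternatives. Its distance from all genes, 1.32, moved to 1.79 with all peaks counted and to 1.66 with peaks lacking a seed match. It moved to 1.74 with all genes in noncoding exons as background, the box C/D genes themselves included. The median of the background was lower in each of these. Log ratios below -2 were found for 0 genes where 1 lay below -1. Grouping by RefSeq host or name family was added after the data had been seen. No paired analysis was possible because the tables give no value per replicate, and leaving out single replicates was not run for the same reason. Precision is limited by the unknown depth.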
